A study of Homo sapiens with 27 samples.

Results

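The 10 genes described here encode the machinery that licenses replication origins: MCM2, MCM3, MCM4, MCM5, MCM6, MCM7, MCM10, CDC6, CDT1 and ORC1. They were taken by symbol from a count table of 24566 genes, and all 10 were found and passed the filter on low counts in both cell lines. Total RNA was sequenced from A431, an epidermoid carcinoma line, and MDA-MB-231, a breast adenocarcinoma line, 48 h after treatment. The treatments included Compound Kushen Injection (CKI), an injectable mixture of extracts from the herbs Kushen and Baituling. The 15 A431 libraries, 3 for each group, came from untreated cells, a vehicle control, cells given CKI at 1.0 mg/ml, cells given doxorubicin and cells given both agents. The 12 MDA-MB-231 libraries were untreated cells, CKI at 1.0 mg/ml, 5-fluorouracil (5-FU) at 10 μg/ml, and CKI plus 5-FU, with 3 replicates each. Both lines are single established lines, the vehicle was not named, and the label does not say which of its doxorubicin concentrations was used.

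Licensing takes place before S phase. The origin recognition complex, of which ORC1 is the largest subunit, binds DNA, and with CDC6 and CDT1 it loads the ring of MCM2 to MCM7, the core of the replicative helicase. MCM10 acts later, when the loaded helicase is switched on. These genes are known targets of E2F transcription factors, their transcripts rise as cells enter the cycle, and they are widely used as markers of proliferation. Doxorubicin, a topoisomerase II poison, and 5-FU, a thymidylate synthase inhibitor, both interfere with DNA synthesis.

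In GRCh37 the genes lie on separate chromosomes. Of the helicase ring, MCM2 is at chr3:127317253-127341279 on the plus strand, MCM3 at chr6:52128812-52149679 on the minus strand and MCM4 at chr8:48872745-48890720 on the plus strand. MCM5 is at chr22:35796127-35821424 on the plus strand, MCM6 at chr2:136597196-136634013 on the minus strand and MCM7 at chr7:99689856-99699563 on the minus strand. Of the others, MCM10 is at chr10:13203558-13253110 on the plus strand and CDC6 at chr17:38444131-38460909 on the plus strand. CDT1 is at chr16:88870197-88875666 on the plus strand and ORC1 at chr1:52838501-52870095 on the minus strand. Exons of MCM2 overlap those of another annotated gene, ENSG00000285600. How reads from the overlap were counted is not given in the sources used here.

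The lines matched their labels. Of 6 epidermoid markers, KRT5, KRT14, TP63, CDH1 and DSG3 had medians from 184 to 2180 CPM in A431 and from 0.0231 to 0.842 CPM in MDA-MB-231, while EGFR was at a median of 1970 CPM in A431 and 275 CPM in MDA-MB-231. VIM and ZEB1 had medians of 931 and 68.8 CPM in MDA-MB-231 and 7.27 and 0.507 CPM in A431, and AXL 683 and 119 CPM. The hormone receptor genes ESR1 and PGR had medians from 0 to 1.44 CPM. Totals ran from 17757206 to 22809339 counts per library. Between replicates the chi-square per degree of freedom of the counts was from 1.83 to 5.46, except for untreated MDA-MB-231 replicate 1, at 70.8 and 81.8 against its fellow replicates, and the vehicle control, at 9.9 to 28.3. Values without untreated MDA-MB-231 replicate 1 stand beside the results they change. With the vehicle control as the A431 baseline and its replicate 1 left out, 0 calls were lost and 0 gained among 40 member results.

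Most of these transcripts were somewhat higher in untreated A431 than in untreated MDA-MB-231 cells, but calls were about as frequent as over all genes. By edgeR's quasi-likelihood test, 2 of the 10 genes were called higher in A431, at an adjusted p under 0.05 and a log2 fold change over 1. Of the 14848 genes tested 22.5% were called higher, a share near that of the members. MCM2 stood at 473, 454 and 544 CPM (counts scaled to a common library total) in A431 and at 111, 129 and 137 CPM in MDA-MB-231, a log2 difference of 2.01 (SE 0.0887, edgeR adjusted p = 1.3e-10). MCM5 stood at 322, 313 and 355 CPM in A431 and at 123, 159 and 153 CPM in MDA-MB-231, a log2 difference of 1.23 (SE 0.0897, edgeR adjusted p = 2.6e-08). The lines did not overlap for either helicase gene, and 40.2% of all genes likewise lay wholly higher in A431. By the adjusted p alone, without the fold, 9 genes were higher in A431, against 41.9% of all genes; the exception was MCM10, with a log2 difference of -0.17 (SE 0.0835, edgeR adjusted p = 0.072). With replicate 1 of the untreated MDA-MB-231 cells left out a further gene, MCM4, was called, at 1.01, which made 3, and CDT1 went from 0.68 to 0.46. Line and culture cannot be told apart in these samples, and the CPM scale assumes that most genes were equal between lines.

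Within a line, the helicase subunits MCM3 and MCM7 had the highest means of the 10 per length of transcript, and ORC1 and MCM10 the lowest. Not all helicase subunits ranked above the loading factors. On the FPKM scale, which divides CPM by the exon length in kilobases, untreated A431 cells held MCM3 at 153 ± 2.72, MCM7 at 117 ± 6.35 and MCM2 at 104 ± 10.1 (SD, n = 3). MCM7 and MCM2 overlapped between libraries. Then came MCM5 at 45.4 ± 3.02 FPKM, MCM4 at 30.5 ± 0.631, MCM6 at 28.5 ± 2.46, CDT1 at 27.6 ± 0.671 and CDC6 at 23.1 ± 0.629 (SD, n = 3), of which MCM4, MCM6 and CDT1 overlapped from neighbour to neighbour. ORC1 at 9.33 ± 0.35 FPKM and MCM10 at 6.84 ± 0.607 FPKM (SD, n = 3) closed the order, without overlap. In untreated MDA-MB-231 cells MCM3 at 115 ± 6.6 FPKM and MCM7 at 86.3 ± 6.93 FPKM (SD, n = 3) stood apart from the rest. MCM2 at 26.6 FPKM and MCM6 at 25.6 FPKM overlapped each other, as did MCM5, CDC6, CDT1 and MCM4 at means from 19.9 down to 16.4 FPKM, and MCM10 at 7.94 FPKM and ORC1 at 7.04 FPKM. The order depends on which length is used: with the canonical transcript instead of all exons, MCM7 led in A431 at 235 FPKM over MCM3 at 182 FPKM, and MCM4 rose from 30.5 to 74 FPKM.

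Promoter windows from RefSeq (GRCh38.p14, 250 bases before to 50 bases after the start of transcription) were held for 8 of the 10 genes, all but MCM4 and MCM5. An E2F motif, spelled TTTGGCGC, TTTCCCGC, TTTGCCGC or TTTCGCGC on either strand, was found for 6 of the 8 genes (MCM2, MCM3, MCM6, MCM7, CDC6 and CDT1), and in 3.31% of all 35116 windows. The CCAAT box was found for 6 of the 8 genes and in 34.6% of windows. The CHR element, TTTGAA or TTTCAA, was found for 0 of the 8 and in 22% of windows. These are letter matches only, and binding was not measured.

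The stretches that hold the E2F motif upstream of the start are shown for MCM3 and MCM6, which fell with 5-FU, for CDT1, which rose, and for MCM7, which did not pass, with the motif in capitals and 30 bases or the start of transcription at either side. In MCM2 and CDC6 the match lies after the start, and a second match in MCM3 runs over the start and is not shown. The MCM6 stretch is chr2:135876492-135876625, the MCM3 stretch chr6:52284879-52284946 and the MCM7 stretch chr7:100101398-100101614, all on the minus strand, and the CDT1 stretch is chr16:88803724-88803788 on the plus strand (GRCh38.p14).
MCM6: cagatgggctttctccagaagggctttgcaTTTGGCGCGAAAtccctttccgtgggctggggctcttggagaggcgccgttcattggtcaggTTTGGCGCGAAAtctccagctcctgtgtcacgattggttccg
MCM3: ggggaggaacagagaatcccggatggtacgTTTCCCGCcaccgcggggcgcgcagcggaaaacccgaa
MCM7: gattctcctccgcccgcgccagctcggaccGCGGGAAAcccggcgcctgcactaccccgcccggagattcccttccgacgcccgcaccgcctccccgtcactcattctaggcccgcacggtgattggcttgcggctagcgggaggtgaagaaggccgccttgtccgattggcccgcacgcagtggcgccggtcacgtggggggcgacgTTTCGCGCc
CDT1: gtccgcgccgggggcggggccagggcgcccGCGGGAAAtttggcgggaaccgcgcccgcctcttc
In MCM6 each run of capitals is a pair of overlapping motifs, one on each strand, and the run occurs at -152 and again at -90 from the start. MCM3 and CDT1 each have 1 motif in the stretch shown, and MCM7 has motifs at -187 and at -9.

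CKI lowered all 10 genes in A431. The falls ran from a log2 fold change of -1.68 for CDC6 to -2.89 for CDT1, with a median of -2.43, against a median of 0.00 over all 15881 genes tested. All 10 were called lower by edgeR, as were 10.4% of all genes. Since whole cultures were extracted, fewer cells that express these genes and less RNA per cell cannot be told apart.

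Among the helicase subunits, MCM3 stood at 558, 549 and 569 CPM in untreated A431 cells and at 101, 102 and 102 CPM with CKI. That is a log2 fold change of -2.53 (SE 0.0507, edgeR adjusted p = 1.9e-20). The CKI libraries lay below all untreated ones, as they did for 32.1% of all genes. MCM7 went from 575, 550 and 613 CPM to 97.6, 102 and 102 CPM, MCM5 from 322, 313 and 355 CPM to 51.8, 51.4 and 50.7 CPM, and MCM4 from 305, 293 and 303 CPM to 65.8, 66.7 and 68.8 CPM. Their log2 fold changes were -2.60 (SE 0.0662), -2.76 (SE 0.0835) and -2.24 (SE 0.0555). MCM2 and MCM6 fell least in the ring, with log2 fold changes of -1.70 (SE 0.068) and -1.83 (SE 0.0703), MCM6 from 110, 114 and 129 CPM to 33.6, 36.8 and 34.6 CPM.

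The loading factors showed the smallest and the largest fall. CDT1 stood at 76.7, 74.2 and 77.8 CPM in untreated cells and at 8.46, 11.8 and 12.4 CPM with CKI, a log2 fold change of -2.89 (SE 0.13, edgeR adjusted p = 4.9e-15). CDC6 stood at 120, 121 and 126 CPM and at 38.3, 39.1 and 43.7 CPM, a log2 fold change of -1.68 (SE 0.0629, edgeR adjusted p = 2.3e-16). Neither pair of groups overlapped, and for 32.1% of all genes the CKI libraries likewise lay below all untreated ones. ORC1 fell from 28.1, 30.3 and 29 CPM to 5.93, 4.81 and 5.85 CPM, and MCM10 from 36, 34.9 and 41.1 CPM to 7.5, 7.58 and 7.46 CPM, with log2 fold changes of -2.47 (SE 0.106) and -2.39 (SE 0.102).

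**Figure D1:**
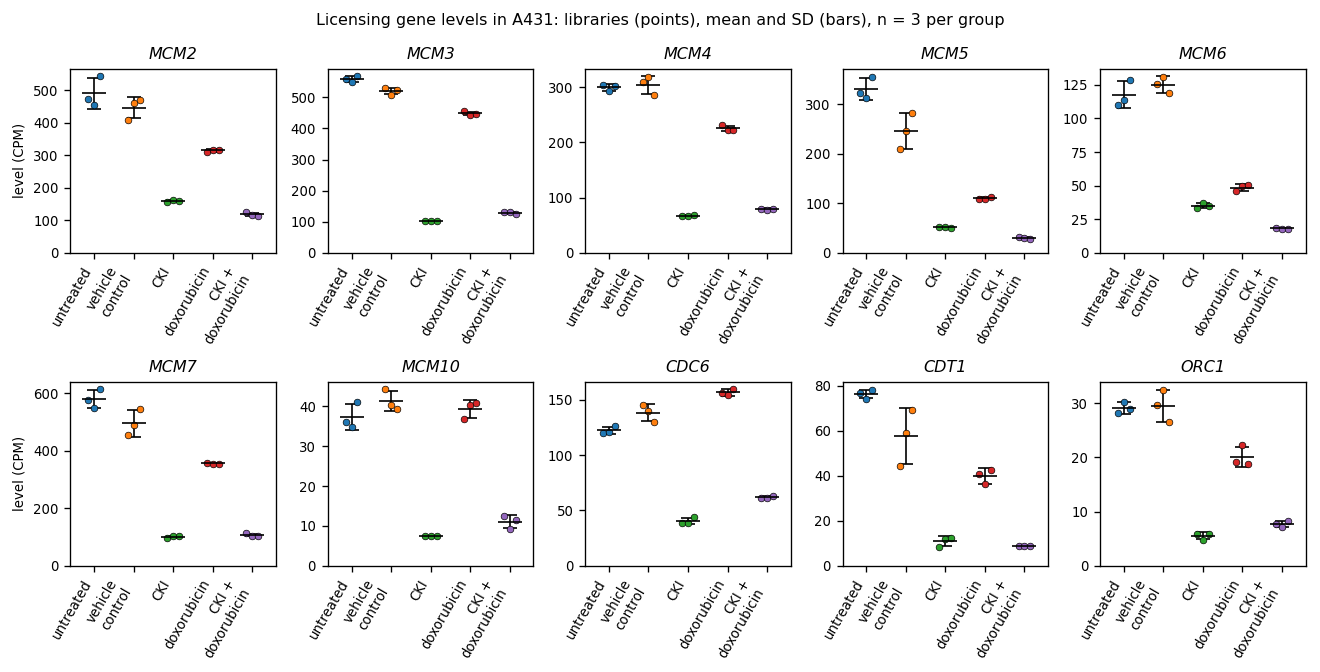
Level of each gene in the 15 A431 libraries, in CPM on a linear axis from 0. Points are libraries, and the horizontal mark and bars are the mean and SD of 3 replicates. In every panel the CKI and the CKI plus doxorubicin libraries lie below all untreated libraries. Against untreated libraries, 32.1% of all genes lie wholly below with CKI and 38.2% with CKI plus doxorubicin.

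The vehicle control was close to untreated A431 cells for most of the genes. None of the 10 was called, against 2.54% of all genes in either direction. On the adjusted p alone 3 genes were lower, against 19.3% of all genes, and 1 was higher, against 23.2%. The lower genes were MCM5 at -0.41 (SE 0.0764), MCM7 at -0.21 (SE 0.0615) and CDT1 at -0.39 (SE 0.11) on the log2 scale, and CDC6 was higher at 0.19 (SE 0.059). The vehicle libraries spread widely for CDT1, at 44.4, 58.9 and 69.3 CPM. When GC content and length were corrected for by offsets, 6 of the 10 genes changed sign, among them MCM7, to 0.03, and CDT1, to 0.08.

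Compared with the vehicle control, CKI again lowered all 10 genes, from -1.58 for MCM2 to -2.55 for MCM10 on the log2 scale, and all 10 were called, as were 8.22% of all genes. Without vehicle replicate 1 the count was again 10.

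Doxorubicin alone reached the helicase genes unevenly. MCM5 and MCM6 were called lower, 2 of 10 genes against 14.3% of all genes, a share near that of the members. MCM5 stood at 322, 313 and 355 CPM in untreated cells and at 109, 108 and 113 CPM with doxorubicin, a log2 fold change of -1.64 (SE 0.0789, edgeR adjusted p = 1.1e-14). MCM6 stood at 110, 114 and 129 CPM and at 45.7, 49.6 and 50.2 CPM, a log2 fold change of -1.34 (SE 0.0683, edgeR adjusted p = 3.4e-14). In both the doxorubicin libraries lay below all untreated libraries, as they did for 39% of all genes. The MCM6 call is lost when libraries are scaled by size alone, at -0.99, a scaling that moved the median of all genes by 0.34.

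The remaining members moved less with doxorubicin, and not all downward. By the adjusted p 8 genes were lower, against 39.9% of all genes, and 1 was higher, against 40.7%. MCM3 fell by 0.37 (SE 0.0473), from 558, 549 and 569 CPM to 455, 445 and 447 CPM, and MCM4 fell by 0.47 (SE 0.0521). MCM2 fell by 0.70 (SE 0.066) and MCM7 fell by 0.76 (SE 0.0619). Among the loading factors CDT1, at 40.8, 36.1 and 42.7 CPM, had a log2 fold change of -0.99 (SE 0.112), just short of the fold threshold and past it in 5 of 17 alternatives, down to -1.05, and ORC1 of -0.59 (SE 0.0891). CDC6 went the other way, from 120, 121 and 126 CPM to 156, 154 and 160 CPM, by 0.30 (SE 0.0588, edgeR adjusted p = 6.9e-05). MCM10 stood at 36.8, 40.4 and 40.9 CPM, within the range of the untreated libraries, with a log2 fold change of 0.02 (SE 0.0847, edgeR adjusted p = 0.8). Against the vehicle control MCM5 and MCM6 were again the genes called, at -1.23 (SE 0.0784) and -1.44 (SE 0.0681), where 14.8% of all genes were called lower, and CDC6 was at 0.11 (SE 0.0585, edgeR adjusted p = 0.087).

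CKI together with doxorubicin lowered all 10 genes in A431. All 10 were called lower against untreated cells, as were 13.8% of all genes, and against the vehicle control, as were 11.7% of all genes. Against doxorubicin alone all 10 were called lower too, where 8.03% of all genes were, with a median log2 fold change of -1.59, against 0.03 over all genes. MCM5 reached the deepest fall of any member in the series: 31.4, 29.7 and 28.1 CPM with both agents, a log2 fold change from untreated cells of -3.50 (SE 0.0873, edgeR adjusted p = 1.4e-19). CDT1 followed at -3.14 (SE 0.132) and MCM6, at 18.5, 17.9 and 17.7 CPM, at -2.73 (SE 0.0747). CDC6 fell least, to 61.4, 61.5 and 62.8 CPM, by 1.01 (SE 0.0608); that call is lost in 6 of 17 alternatives, and the values over all 17 ran from -1.20 to -0.69.

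**Figure D2:**
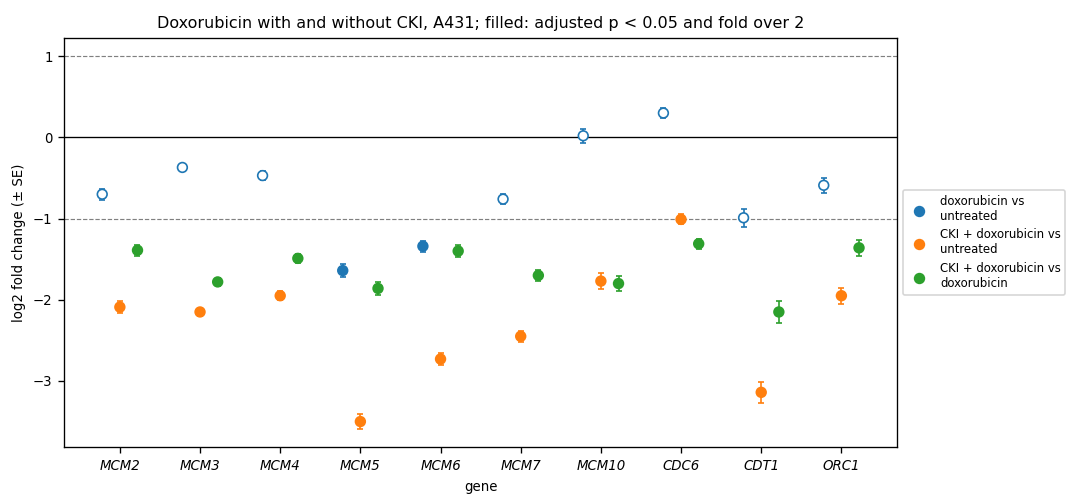
Log2 fold change of each gene in A431 for doxorubicin and for CKI plus doxorubicin against untreated cells, and for CKI plus doxorubicin against doxorubicin, with bars of 1 standard error. Filled points passed both thresholds; the doxorubicin points run from -1.64 for MCM5 to 0.30 for CDC6, and the CKI plus doxorubicin points all lie below 0.

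With doxorubicin added to CKI none of the members was called, where 25.7% of all genes were in either direction. The adjusted p alone put 3 genes lower, against 34.8% of all genes: MCM6 at -0.91 (SE 0.0772), MCM5 at -0.74 (SE 0.0864) and MCM2 at -0.39 (SE 0.0677) on the log2 scale. Another 6 were higher, against 38.5% of all genes, led by CDC6 at 0.67 (SE 0.0633), MCM10 at 0.61 (SE 0.113) and ORC1 at 0.52 (SE 0.122). MCM5 and MCM6 were also the genes that doxorubicin alone lowered past both thresholds. With offsets for GC content and length, MCM6 was called here.

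The effects of CKI and doxorubicin together were smaller than the sum of each alone on the log2 scale. The interaction term was above 0 for all 10 genes on the adjusted p alone, against 31.4% of all genes, with a median of 0.74 over the members and 0.04 over all genes. Only ORC1 passed the fold threshold as well, at 1.12 (SE 0.151, edgeR adjusted p = 1.3e-06), where 8.56% of all genes were called higher, and that call is lost when libraries are scaled by size alone, at 0.98. ORC1 stood at 28.1, 30.3 and 29 CPM untreated, 5.93, 4.81 and 5.85 CPM with CKI, 19.2, 22.2 and 18.8 CPM with doxorubicin, and 7.71, 7.14 and 8.19 CPM with both. When the vehicle control stood in for untreated cells, ORC1 was again the gene called, at 1.16 (SE 0.15), and MCM2 at 0.19 (SE 0.0943, edgeR adjusted p = 0.093) and CDT1 at 0.36 (SE 0.191, edgeR adjusted p = 0.11) did not pass.

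In MDA-MB-231 cells CKI at the same concentration lowered the helicase genes by less. None of the 10 passed both thresholds, where 2.21% of all genes were called lower, and 8 were lower on the adjusted p alone, against 18.8% of all genes. MCM5 stood at 123, 159 and 153 CPM in untreated cells and at 80.7, 75.6 and 78.7 CPM with CKI, a log2 fold change of -0.89 (SE 0.0872, edgeR adjusted p = 1.4e-05). MCM6 stood at 112, 103 and 102 CPM and at 59.3, 56.8 and 63.1 CPM, a log2 fold change of -0.83 (SE 0.063, edgeR adjusted p = 1.8e-06). MCM3 stood at 447, 415 and 400 CPM and at 241, 239 and 245 CPM, a log2 fold change of -0.80 (SE 0.0535, edgeR adjusted p = 6.5e-07). None of these pairs of groups overlapped, and for 22.5% of all genes the CKI libraries likewise lay below all untreated ones. MCM2 fell by 0.69 (SE 0.0736), MCM7 fell by 0.53 (SE 0.0631) and MCM4 fell by 0.44 (SE 0.0718) on the log2 scale.

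Outside the helicase ring, MCM10 fell by 0.23 (SE 0.0746) and ORC1 fell by 0.24 (SE 0.0804). CDC6, with a log2 fold change of 0.08 (SE 0.0812, edgeR adjusted p = 0.47), and CDT1, with -0.39 (SE 0.167, edgeR adjusted p = 0.09), did not pass. For both, untreated replicate 1 differed from the other untreated libraries: CDT1 stood at 32.1 CPM there and at 58.7 and 55.9 CPM in the others, and CDC6 at 122, 99.6 and 93.8 CPM. That library is the one that stood apart over all genes. Without it CDT1 was at -0.62 and CDC6 at 0.20 on the log2 scale. MCM5 came to the edge of the fold threshold, at -1.00, and again none of the 10 genes was called.

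The response to CKI differed between the lines for every gene. The difference between the log2 fold changes, A431 minus MDA-MB-231, was called for 9 of the 10 genes, where 9.62% of all 14848 genes tested were called in that direction, and passed the adjusted p for all 10, against 23.9% of all genes. The largest differences were in CDT1, at -2.49 (SE 0.259, edgeR adjusted p = 5.2e-06), ORC1, at -2.23 (SE 0.151, edgeR adjusted p = 1.6e-07), and MCM10, at -2.15 (SE 0.125, edgeR adjusted p = 4.9e-08). With replicate 1 of the untreated MDA-MB-231 cells left out the count was again 9, with CDT1 at -2.27, ORC1 at -2.32 and MCM10 at -2.16; MCM6 then passed, at -1.04, and MCM2 did not, at -0.93. The smallest differences were in MCM2, at -1.00 (SE 0.122), and MCM6, at -0.99 (SE 0.116), which was not called. The call for MCM2 is lost in 15 of 21 alternatives, with values from -1.07 to -0.76, and MCM6 is called in 6 of 21, with values from -1.10 to -0.83.

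**Figure D3:**
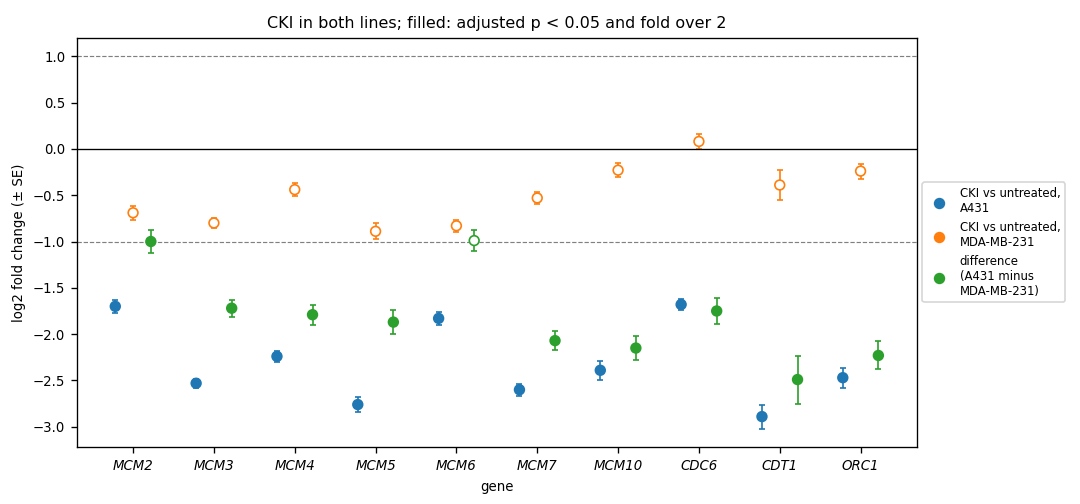
Log2 fold change with CKI against untreated cells in A431 and in MDA-MB-231, and the difference between the lines, for each gene with bars of 1 standard error. Filled points passed both thresholds; the A431 points lie from -1.68 to -2.89 and the MDA-MB-231 points from -0.89 to 0.08.

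In MDA-MB-231 cells 5-FU moved the members in both directions. Of the 10 genes 1 was called lower, MCM6, against 7.31% of all 13999 genes tested, and 2 were called higher, CDT1 and ORC1, against 6.01%. On the adjusted p alone 3 genes were lower, against 28.5% of all genes, and 6 were higher, against 28.6%. By either rule the count of lower members was near the share over all genes. The genes that fell were helicase subunits, MCM3, MCM5 and MCM6. Those that rose were the 3 loading factors, MCM10, and the helicase subunits MCM2 and MCM4.

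MCM6 stood at 112, 103 and 102 CPM in untreated cells and at 43.6, 44.6 and 47.2 CPM with 5-FU, a log2 fold change of -1.22 (SE 0.0637, edgeR adjusted p = 3e-08). MCM3 stood at 447, 415 and 400 CPM and at 219, 223 and 215 CPM, a log2 fold change of -0.94 (SE 0.0537, edgeR adjusted p = 6.1e-08). MCM5 stood at 123, 159 and 153 CPM and at 82.2, 80.3 and 75.8 CPM, a log2 fold change of -0.86 (SE 0.0871, edgeR adjusted p = 5.3e-06). All the 5-FU libraries lay below all the untreated ones for these 3 genes, as they did for 28.6% of all genes. MCM7, at 389, 455 and 439 CPM and then at 403, 406 and 397 CPM, lay within the untreated range, with a log2 fold change of -0.08 (SE 0.0628, edgeR adjusted p = 0.27).

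ORC1 rose the most, from 24.5, 19.8 and 21.7 CPM to 53.9, 49.9 and 53.4 CPM, a log2 fold change of 1.26 (SE 0.0782, edgeR adjusted p = 1.1e-07). CDT1 rose from 32.1, 58.7 and 55.9 CPM to 109, 105 and 103 CPM, a log2 fold change of 1.12 (SE 0.165, edgeR adjusted p = 0.00011). MCM10 rose from 43.5, 46 and 40.4 CPM to 81.9, 78.7 and 87.6 CPM, a log2 fold change of 0.94 (SE 0.0738, edgeR adjusted p = 7e-07). Here too the groups did not overlap, in the opposite direction to MCM3, MCM5 and MCM6. For 29.8% of all genes the 5-FU libraries likewise lay above all untreated ones. CDC6 went from 122, 99.6 and 93.8 CPM to 169, 168 and 169 CPM, by 0.69 (SE 0.0812), MCM2 from 111, 129 and 137 CPM to 179, 170 and 170 CPM, by 0.47 (SE 0.0728), and MCM4 from 177, 163 and 145 CPM to 203, 204 and 190 CPM, by 0.31 (SE 0.0714). Without untreated replicate 1 the same 3 genes were lower, with MCM6 at -1.18, MCM3 at -0.89 and MCM5 at -0.97, and ORC1 was at 1.34, but CDT1 fell to 0.89 and lost its call.

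**Figure D4:**
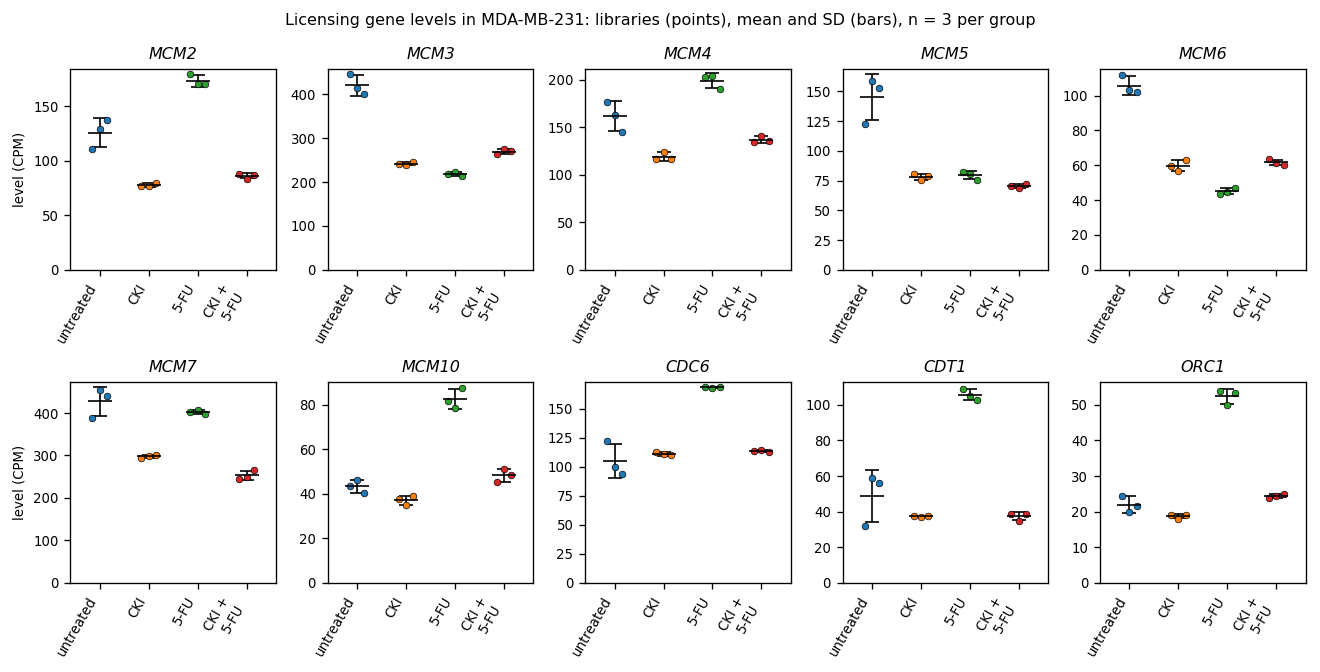
Level of each gene in the 12 MDA-MB-231 libraries, in CPM on a linear axis from 0. Points are libraries, and the horizontal mark and bars are the mean and SD of 3 replicates. With 5-FU, ORC1, CDT1 and MCM10 lie above all untreated libraries, as do 29.8% of all genes. MCM3, MCM5 and MCM6 lie below all untreated libraries, as do 28.6% of all genes.

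CKI given with 5-FU left most members below 5-FU alone. Of the 10 genes 3 were called lower than with 5-FU, against 4.51% of all genes. CDT1 stood at 38.8, 34.8 and 38.7 CPM with both agents, a log2 fold change from 5-FU of -1.50 (SE 0.167, edgeR adjusted p = 1.8e-05). ORC1 stood at 23.8, 24.4 and 25 CPM, a log2 fold change of -1.10 (SE 0.0775, edgeR adjusted p = 5.3e-07), and MCM2 at 88, 83.5 and 86.7 CPM, a log2 fold change of -1.01 (SE 0.0736, edgeR adjusted p = 7.2e-07). None of these groups overlapped, and 34.2% of all genes likewise lay wholly below 5-FU. The MCM2 call is lost in 5 of 15 alternatives, with values from -1.02 to -0.92.

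By the adjusted p 7 members were lower with CKI plus 5-FU than with 5-FU, against 24.5% of all genes, and 2 were higher, against 25.9%. The higher ones were MCM6, at 63.4, 61.5 and 60.2 CPM, by 0.45 (SE 0.0635, edgeR adjusted p = 0.0001), and MCM3, at 263, 275 and 271 CPM, by 0.30 (SE 0.0533, edgeR adjusted p = 0.00058). Both lie among the genes that 5-FU alone lowered, and the 5-FU libraries enter both comparisons with opposite sign. MCM5 had a log2 fold change of -0.17 (SE 0.0872, edgeR adjusted p = 0.12).

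Against untreated MDA-MB-231 cells the combination left 1 gene called lower, MCM5, against 4.76% of all genes. It stood at 70.7, 68.4 and 71.9 CPM, a log2 fold change of -1.03 (SE 0.0875, edgeR adjusted p = 2.1e-06), and the call is lost in 5 of 15 alternatives, with values from -1.14 to -0.85. By the adjusted p 6 genes were lower, the whole helicase ring, against 23.7% of all genes, from MCM4 at -0.24 (SE 0.0716) through MCM7 at -0.75 (SE 0.0633) and MCM6 at -0.77 (SE 0.0628) to MCM5. The loading factors and MCM10 did not pass: log2 fold changes were 0.17 (SE 0.0739) for MCM10, 0.12 (SE 0.0811) for CDC6, -0.38 (SE 0.167) for CDT1 and 0.16 (SE 0.0792) for ORC1. Without untreated replicate 1 CDT1 was at -0.61 and MCM5, again the 1 gene called, at -1.14.

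Set against CKI alone, CKI plus 5-FU moved the members little. None was called, where 3.81% of all genes were in either direction. By the adjusted p MCM7 was lower, at -0.22 (SE 0.063), against 20% of all genes. Another 4 were higher, against 22.1% of all genes: MCM10 at 0.39 (SE 0.0743), ORC1 at 0.39 (SE 0.0799), MCM4 at 0.21 (SE 0.0717) and MCM3 at 0.17 (SE 0.0533).

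**Figure D5:**
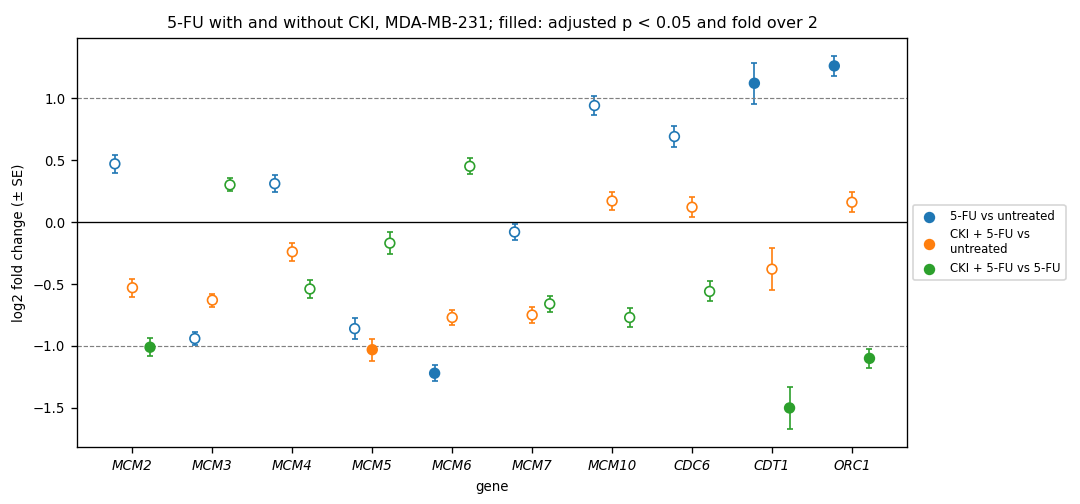
Log2 fold change of each gene in MDA-MB-231 for 5-FU and for CKI plus 5-FU against untreated cells, and for CKI plus 5-FU against 5-FU, with bars of 1 standard error. Filled points passed both thresholds; 5-FU points run from -1.22 for MCM6 to 1.26 for ORC1, while CKI plus 5-FU points against untreated cells run from -1.03 for MCM5 to 0.17 for MCM10.

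The interaction of CKI and 5-FU had both signs among the members. It was called above 0 for 2 genes, MCM6 at 1.28 (SE 0.0894, edgeR adjusted p = 3.4e-06) and MCM3 at 1.10 (SE 0.0755, edgeR adjusted p = 3e-06), where 3.04% of all genes were. It was called below 0 for 1 gene, CDT1, at -1.11 (SE 0.235, edgeR adjusted p = 0.004), where 3.81% of all genes were. For MCM6 and MCM3 each agent alone lowered the gene and the fall with both was smaller than their sum. On the adjusted p alone 3 genes were above 0, against 17.1% of all genes, and 5 below, against 14.3%. The CDT1 call is lost without untreated replicate 1, at -0.88, and with GC and length offsets, at -0.85.

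The rest of the licensing and replication pathway was counted in lists. In A431 with CKI, where 10.4% of all genes were called lower, 14 of 16 genes for helicase activation and origin firing were called lower, with a median log2 fold change of -1.74, led by CDC45, a partner of MCM2 to MCM7 in the active helicase, at -2.94 (SE 0.0763, edgeR adjusted p = 5.2e-19). RECQL4, which acts in origin firing, was at -2.91 (SE 0.122, edgeR adjusted p = 1.5e-15). Of 24 replication fork enzymes 19 were called lower, led by the clamp loader subunits RFC3 at -2.61 (SE 0.0929) and RFC2 at -2.51 (SE 0.0677). The polymerase subunit POLD4 was called higher, at 1.02 (SE 0.0741), where 12% of all genes were, and was named after its value was seen. The POLD4 call is lost in at least 1 of 17 alternatives. Of the 9 other licensing factors 4 were called lower. Among them GMNN, which encodes the CDT1 inhibitor geminin, was at -1.71 (SE 0.0705, edgeR adjusted p = 1.1e-15) and ORC6 at -1.91 (SE 0.0743, edgeR adjusted p = 4.2e-16).

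In the same comparison 8 of 18 genes for E2F factors, pocket proteins and the MuvB complex were called lower and 1 higher. Of all genes the same 10.4% were called lower and 12% higher. The lower genes were led by MYBL2 at -2.35 (SE 0.069) and E2F2 at -2.18 (SE 0.0851), both activators of cell cycle transcription. The higher gene was RBL2, a pocket protein that represses cell cycle genes, at 1.10 (SE 0.0777), named after its value was seen. The RBL2 call is lost in at least 1 of 17 alternatives. Of 10 genes for CDT1 and CDC6 turnover 3 were called lower, among them DTL, a subunit of the ligase that degrades CDT1, at -2.39 (SE 0.0978), and CCNA2, cyclin A2, at -2.13 (SE 0.0797).

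With CKI in MDA-MB-231 cells 0 of the 9 other licensing factors, 0 of 16 firing factors, 0 of 24 fork enzymes and 0 of 10 turnover genes were called, where 2.21% of all genes were called lower. Judged on the adjusted p alone, 2, 7, 8 and 5 of them were lower, against 18.8% of all genes, and 1, 0, 0 and 0 higher, against 17.4%. The E2F list had 2 of 18 genes called lower, E2F2 at -1.46 (SE 0.16, edgeR adjusted p = 3.1e-05) and E2F8 at -1.08 (SE 0.0919, edgeR adjusted p = 4.2e-06).

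With 5-FU 4 of 16 firing factors were called higher, where 6.01% of all genes were, led by CLSPN, a checkpoint mediator at forks, at 1.78 (SE 0.125, edgeR adjusted p = 3e-07) and TIPIN, a fork protection factor, at 1.17 (SE 0.0992, edgeR adjusted p = 1.3e-06). On the adjusted p alone 9 were higher and 1 lower, against 28.6% and 28.5% of all genes. Of 24 fork enzymes 1 was called, RFC3 at 1.06 (SE 0.107), with 14 higher and 3 lower on the adjusted p alone. The RFC3 call is lost in 4 alternatives, among them GC and length offsets, at 0.92, and without untreated replicate 2, at 0.97. None of the other licensing factors was called and 6 of 9 were higher on the adjusted p alone, with 0 lower. Of the E2F list E2F8 was called higher at 1.35 (SE 0.0861) and RBL2 lower at -1.02 (SE 0.104), where 7.31% of all genes were called lower. The RBL2 call is lost in 4 alternatives, among them the one without untreated replicate 1, at -0.94. With CKI plus 5-FU against untreated cells only LIG1, DNA ligase I, at -1.10 (SE 0.102), and E2F2, at -1.75 (SE 0.163), were called among these 5 lists, where 4.76% of all genes were called lower. The LIG1 call is lost with library size alone, at -0.96, and with GC and length offsets, at -0.93.

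With doxorubicin in A431 1 of 9 other licensing factors, GMNN at -1.14 (SE 0.0675), and 1 of 16 firing factors, RECQL4 at -2.04 (SE 0.115), were called lower, where 14.3% of all genes were. The GMNN call is lost with library size alone, at -0.80, and with at least 10 counts in every library, at -0.97. Of 24 fork enzymes 4 were, led by POLA1, the catalytic subunit of polymerase alpha, at -1.79 (SE 0.0847), and POLD2 at -1.69 (SE 0.0936), and 22 were lower on the adjusted p alone, against 39.9% of all genes. The E2F list had 3 genes called lower, among them RBL1 at -1.48 (SE 0.0868), and 1 higher, where 23% of all genes were called higher. The higher gene was LIN37 at 1.17 (SE 0.282), which loses its call without untreated replicate 3, at 0.98. Of the turnover genes SKP2, a subunit of another ligase that marks CDT1 for degradation, was called lower at -1.41 (SE 0.0772). With CKI plus doxorubicin 3 of 9, 10 of 16, 19 of 24, 6 of 18 and 3 of 10 genes of these lists, ordered as licensing, firing, fork, E2F and turnover genes, were called lower, where 13.8% of all genes were. They were led by GINS2, a component of the active helicase, at -3.29 (SE 0.0752), RECQL4 at -2.87 (SE 0.121), DTL at -2.68 (SE 0.0999) and SKP2 at -2.63 (SE 0.0855).

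Across all 27 libraries, MCM4 and MCM7 had the patterns most like the mean of the other members. Likeness was the root mean square difference in log2(CPM + 1) after centring within each line, and it was 0.12 for MCM4 and 0.15 for MCM7, then 0.25 for MCM2. MCM6 at 0.51, MCM5 at 0.46 and CDC6 at 0.41 were the least like the rest. Outside the lists, the genes nearest to the mean of all 10 members among 12649 candidates were KIF22 at 0.12, SUV39H1 at 0.15, UBE2C at 0.17, AURKB at 0.17 and BLM at 0.18, where the median over all candidates was 0.83. These are descriptions over libraries that share treatments, with no test.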

How the data were processed

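Total RNA of 27 libraries in 9 groups of 3 was analysed, and the labels call the replicates biological. The authors deposited whole-number counts per gene for 24566 genes; the submitters' processing notes name Trim Galore 0.3.7, STAR 2.5.3a, edgeR and hg19, and the counter and its annotation are not given in the sources used here. Counts were tested with edgeR 4.0.16 (TMM factors, filterByExpr, quasi-likelihood) in R 4.3.3, once for each line and once for untreated and CKI libraries of both lines, with Benjamini-Hochberg adjustment over all genes tested. Called genes had an adjusted p below 0.05 and a log2 fold change beyond 1 in either direction, the thresholds of the study. Levels are CPM with TMM factors over all libraries, and FPKM use the length of all exons in GRCh37. The members and lists were chosen with earlier results of these data known. In each list the 2 called genes with the largest change were picked. For CKI plus doxorubicin only GINS2, RECQL4, DTL and SKP2 of those picked are printed. The fit was tested on simulated data. Alternatives were RLE factors, library size alone, DESeq2 1.42.0, no filter, at least 10 counts in every library, the compared groups alone, the adjusted p alone, a replicate block, offsets for GC content and length, each library left out, and the vehicle control as the A431 baseline. The canonical transcript length and the vehicle control without its replicate 1 were added after seeing the data. Totals of 17757206 to 22809339 counts per library set the precision.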

Additional observations from a re-analysis of the deposited data

Results flagged for a closer look

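The results here passed both thresholds in edgeR's interaction test. For 2 treatments the test asks whether their joint effect departs from the sum of each alone on the log2 scale. For the 2 lines it asks whether the effect of CKI differs between them. In MDA-MB-231 the interaction of CKI and 5-FU on the log2 scale was 1.10 for MCM3, 1.28 for MCM6 and -1.11 for CDT1. In A431 the interaction of CKI and doxorubicin was 1.12 for ORC1. The CDT1 call is lost in 3 of 21 alternatives and the ORC1 call in 1 of 23.

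Between the lines, the difference in the log2 fold change with CKI, A431 minus MDA-MB-231, was -1.00 for MCM2, -1.72 for MCM3, -1.79 for MCM4, -1.87 for MCM5 and -2.07 for MCM7. Among the other genes it was -2.15 for MCM10, -1.75 for CDC6, -2.49 for CDT1 and -2.23 for ORC1. The MCM2 call between the lines is lost in 15 of 21 alternatives.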

How the results depend on the processing

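Of 150 log2 results for the members 54 were called; 46 of these were called in every alternative, 8 lost the call in at least 1, and 0 changed direction. Of 36 results for genes of the lists picked for the largest change 30 were called in every alternative and 0 changed direction. The others include ORC3 with CKI plus doxorubicin against untreated cells, at -1.07, and at -0.76 with library size alone. POLD4 and RBL2 with CKI in A431, named after their values were seen, are not among these results. On the adjusted p alone the members that passed were 8 for CKI in MDA-MB-231, 9 for 5-FU, 6 for CKI plus 5-FU against untreated cells, 9 against 5-FU and 5 against CKI, 8 for the CKI by 5-FU interaction, 4 for the vehicle control, 9 for doxorubicin, 9 for CKI plus doxorubicin against CKI, 10 for the CKI by doxorubicin interaction and 9 between untreated lines. Called members for CKI plus 5-FU against untreated cells were 0 with library size alone and with GC and length offsets, and from 0 to 1 with a library left out. With library size alone 1 was called for doxorubicin and 0 for its interaction with CKI, and with GC and length offsets 1 for CKI plus doxorubicin against CKI. Library size alone moved the median of all genes by 0.34 with doxorubicin and 0.31 with CKI plus doxorubicin.

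Directions changed among results that were not called. For 5-FU, MCM7 was at 0.05 with library size alone. For CKI plus 5-FU against CKI, GC and length offsets gave MCM5 0.07, MCM6 -0.08 and CDC6 -0.05, and CDT1 was at -0.01 with RLE factors and with DESeq2 and from -0.02 to 0.06 with a library left out. With the same offsets MCM7 was at 0.01 for the CKI by 5-FU interaction, and for the vehicle control MCM2 was at 0.09, MCM4 at -0.10, MCM6 at -0.08, MCM7 at 0.03, MCM10 at -0.03 and CDT1 at 0.08, while ORC1 ran from -0.03 to 0.11 with a library left out. For doxorubicin MCM10 was at -0.03 with no filter, -0.15 with the offsets, -0.14 with the vehicle control, -0.10 with the vehicle control without its replicate 1, and from -0.04 to 0.09 with a library left out. The cause was not tested.

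The replicate numbers gave no clear sign of pairing: in 0 comparisons was every pair's correlation over 0.1. With 3 replicates per group this cannot show that the samples were unpaired. A replicate block changed 0 of 150 calls or directions. With the offsets and the replicate block together the vehicle control gave 0.10 for MCM2 and -0.07 for MCM6.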
